A study of Mus musculus with 16 samples.

Results

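The tight junction genes described here were 9 named genes, found by gene name in each of 3 tables of read counts from mouse small intestine. They were 6 claudins (Cldn2, Cldn3, Cldn4, Cldn7, Cldn15 and Cldn23), 2 other junction membrane proteins (Ocln and F11r) and the scaffold gene Tjp1. All 9 were present in every table, among 52636 genes for the crypts, 54532 for the KOIEC organoids and 52636 for the KOCAG organoids, and all 9 passed the filter on low counts in each experiment, with 85 to 10586 reads per library. They were compared between wildtype (WT) and Cul4b-deleted (KO) epithelium. CUL4B is a cullin, the scaffold subunit of an E3 ubiquitin ligase.

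Tight junctions seal the space between neighbouring epithelial cells at the apical end of their lateral membranes. Claudins are tetraspan proteins whose extracellular loops meet between cells and set which ions pass, some forming pores and others tightening the seal. Occludin and JAM-A (encoded by F11r) are further membrane proteins of the strand region, and ZO-1 (encoded by Tjp1) ties them to the actin cytoskeleton. In the intestine the mix of claudins changes along the crypt-villus axis as cells differentiate.

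There were 16 RNA-seq libraries from C57BL/6 mice. KOIEC mice (pVillin-Cre; Cul4bfn/Y) lose the floxed X-linked gene in intestinal epithelial cells, the cells in which the villin promoter is active, and their wildtype controls are described as Cul4bfn/Y without the Cre. Freshly isolated crypts, taken after the villi had been scraped off, gave 4 WT and 4 KOIEC libraries. Small intestinal organoids, epithelial cultures grown in Matrigel, gave 2 WT and 2 KOIEC libraries. A separate organoid experiment with the inducible line CAG-CreERT2; Cul4bfn/Y (KOCAG), in which Cre is active in all cells after tamoxifen, gave 2 WT and 2 KO libraries, and the sources do not say whether its WT organoids carried CreERT2 or received the drug. The labels give no age, and do not say whether organoid libraries of a group came from separate mice, so p-values there measure only the spread between those libraries.

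The targeted gene went with the labels in every library. Cul4b was at 31.6 to 38.2 CPM (read counts scaled to library size) in WT crypts and at 0.846 to 2.20 in KO crypts. It was at 73.1 to 83.1 against 1.68 to 1.75 CPM in the KOIEC experiment and at 69.9 to 72.7 against 3.33 to 5.18 CPM in the KOCAG experiment. Library totals ran from 7348191 to 16881395 counts. The crypt libraries fell apart by mitochondrial ribosomal RNA (mt-Rnr1 plus mt-Rnr2), which stood at 18.9 to 25.2 CPM in WT replicate 1 and KO replicates 1 to 3, at 834 and 1078 CPM in WT replicate 4 and KO replicate 4, and above 2000 CPM in WT replicates 2 and 3. The epithelial marker Epcam was at 998 CPM or more in all libraries, and markers of endothelium, mesenchyme and smooth muscle summed to at most 7.34 CPM per list. Leukocyte markers summed to 16.6 to 33.7 CPM in WT crypts and 17.4 to 46.0 CPM in KO crypts, and to at most 6.10 CPM in the organoids.

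In the KOCAG organoids Cldn4, Cldn23, F11r and Cldn7 rose (adjusted p under 0.05, edgeR), 4 of the 9 genes, where 31.5% of all tested genes were called in either direction, 18.1% as higher and 13.4% as lower in KO. Cldn4 had the largest change, 3.23-fold. In the crypts and the KOIEC organoids 0 of the 9 were called by edgeR, where 6.96% and 0.00717% of tested genes were. Tjp1 and Ocln were higher in every KO than in every WT library of both KOIEC comparisons, without passing the adjusted test. Here and below, the share of all tested genes whose groups do not overlap was not counted.

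Cldn4 lies on chromosome 5 (chr5:134945119-134946934, minus strand, GRCm38) and Cldn3 (chr5:134986214-134987472, plus strand) is its neighbour. The start sites of the pair face each other across 39279 bases, and the crypt table lists 0 other genes lying between them. The 250 bases before the start of each, and before that of F11r, are printed to show the upstream sequence of the most changed claudin, of its neighbour that was not called, and of the other gene changed most outside the claudins. They are RefSeq sequences on GRCm38.p6, written 5′ to 3′ on the gene's own strand. They span chr5:134946935-134947184 (minus) for Cldn4, chr5:134985964-134986213 (plus) for Cldn3 and chr1:171437311-171437560 (plus) for F11r, and capitals mark matches to the motifs searched. For F11r the RefSeq start lies downstream of the start in the count table, so the last bases of its window fall inside the gene as that table lists it, and all distances here are counted from the RefSeq start:
Cldn4: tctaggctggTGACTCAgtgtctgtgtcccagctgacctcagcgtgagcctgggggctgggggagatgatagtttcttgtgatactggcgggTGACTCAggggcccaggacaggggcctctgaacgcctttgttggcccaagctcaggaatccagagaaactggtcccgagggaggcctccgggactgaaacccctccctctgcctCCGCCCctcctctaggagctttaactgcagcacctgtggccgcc
Cldn3: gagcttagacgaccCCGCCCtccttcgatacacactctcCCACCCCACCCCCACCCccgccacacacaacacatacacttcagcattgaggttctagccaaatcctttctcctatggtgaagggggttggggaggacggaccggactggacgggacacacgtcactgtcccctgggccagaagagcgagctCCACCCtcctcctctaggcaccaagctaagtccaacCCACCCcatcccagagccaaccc
F11r: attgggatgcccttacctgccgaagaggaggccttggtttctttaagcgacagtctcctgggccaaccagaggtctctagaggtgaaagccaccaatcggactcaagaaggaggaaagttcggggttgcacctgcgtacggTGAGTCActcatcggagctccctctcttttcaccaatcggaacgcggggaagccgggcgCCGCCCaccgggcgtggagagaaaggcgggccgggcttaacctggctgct

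The motifs were searched on both strands. They were the GC box GGGCGG, the CACCC box CCACCC, the AP-1 letters TGANTCA, the TATA box TATAAA, the CDX2-type letters TTTATNG, the TCF-type letters ATCAAAG and the HNF4A-type letters CAAAGTCC. The Cldn4 sequence held 2 matches to the AP-1 letters, the nearer starting 158 bases before the start site, and 1 GC box. The F11r sequence held 1 AP-1 match, starting 109 bases before the start, and 1 GC box. The Cldn3 sequence held 1 GC box and 5 CACCC boxes, some of which overlap or adjoin, and no AP-1 match. Of 32851 RefSeq promoters of the same length, 6.7% held the AP-1 letters, 32.7% a GC box and 28.1% a CACCC box. Of the 8 genes that matched the promoter table, Cldn15 also held an AP-1 match, and none of the 8 held a match to the CDX2-type, TCF-type or HNF4A-type letters, which were found in 9.8%, 3.2% and 1.2% of all promoters. These matches describe letters in a window and say nothing about binding.

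In the KOCAG organoids Cldn4, a claudin usually counted among the sealing members, stood at 72.7 and 73.9 CPM in the WT libraries and at 271 and 203 CPM in the KO libraries. Both KO libraries held over 200 CPM. The log2 fold change was 1.69 ± 0.13 (SE), with an adjusted p of 1.81e-05. Cldn23 (chr8:35824712-35826559, minus strand), a claudin of differentiated gut epithelium, was much lower in level. It was at 15.6 and 10.99 CPM in WT and at 32.7 and 25.5 CPM in KO, a log2 fold change of 1.11 ± 0.19 (SE, adjusted p = 0.00187). These 2 genes were those that also passed a 2-fold limit, which 8.6% of all tested genes did.

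Cldn7 (chr11:69964779-69967885, plus strand), a claudin found along the whole lateral membrane, was at 413 and 425 CPM in WT and at 524 and 487 CPM in KO. Its rise was small, 0.27 ± 0.088 on the log2 scale with an adjusted p of 0.0393. Cldn3, a sealing claudin, was at 379 and 345 CPM in WT and at 489 and 404 CPM in KO. Its groups did not overlap and its log2 fold change of 0.30 ± 0.11 (SE) was of the size of that of Cldn7, but its adjusted p was 0.0569. The call on Cldn7 ended when library size alone was used for scaling (adjusted p = 0.0597), and Cldn3 passed the test when no genes were removed for low counts (adjusted p = 0.00759), so the line between this pair depends on the setting. Leaving out an organoid library leaves a group of 1, whose spread is then taken from the 2 libraries of the other group and from the other genes. In such fits Cldn7 lost its call without WT replicate 1, WT replicate 2 or KO replicate 1 (adjusted p = 0.301, 0.193 and 0.104). Cldn3 gained one without KO replicate 2 (adjusted p = 0.00115), where 5177 genes were called in all against 4278 with every library. Mettl27, the gene lying 2481 bases beyond the other end of Cldn4 and named after its values were seen, had a log2 fold change of -0.67 (adjusted p = 0.00726) in the same comparison.

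The pore-forming claudins were nearly level between WT and KO in the KOCAG organoids. Cldn2 (chrX:139800828-139811386, plus strand), a cation and water channel of leaky epithelia, was at 452 and 423 CPM in WT and at 415 and 461 CPM in KO. Cldn15 (chr5:136966616-136975858, plus strand), the main sodium pore of the small intestine, was at 311 and 293 CPM in WT and at 299 and 287 CPM in KO. Groups overlapped for both, and the log2 fold changes were 0.0032 ± 0.093 and -0.04 ± 0.085 (adjusted p = 0.983 and 0.728).

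F11r (chr1:171437535-171464603, plus strand), which encodes the adhesion molecule JAM-A, rose in the KOCAG organoids. It was at 127 and 123 CPM in WT and at 251 and 204 CPM in KO. The log2 fold change of 0.87 ± 0.11 (SE, adjusted p = 0.000254) was the one call among the 9 that was also made in 1 fit of all 16 libraries (adjusted p = 0.0244). In that fit, which shares its estimate of spread with the more variable crypt and KOIEC libraries, the adjusted p was 0.188 for Cldn4, 0.0651 for Cldn23 and 0.331 for Cldn7, with fold changes of nearly the same size.

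Occludin and ZO-1 mRNA did not pass the test in the KOCAG organoids. Ocln (chr13:100496507-100552718, minus strand) was at 195 and 175 CPM in WT and at 189 and 173 CPM in KO, a log2 difference of -0.04 ± 0.091 (adjusted p = 0.784). Tjp1 (chr7:65296165-65527781, minus strand) was at 171 and 153 CPM in WT and at 196 and 162 CPM in KO, a log2 difference of 0.14 ± 0.10 (adjusted p = 0.339). Both pairs of groups overlapped. Without KO replicate 2, which leaves 1 KO library and brings the calls over all genes to 5177, Tjp1 passed the test (log2 fold change 0.27, adjusted p = 0.0214), and without KO replicate 1 its difference was -0.02. The median log2 fold change of the 9 genes was 0.27 beside 0.0012 over all tested genes.

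**Figure D1:**
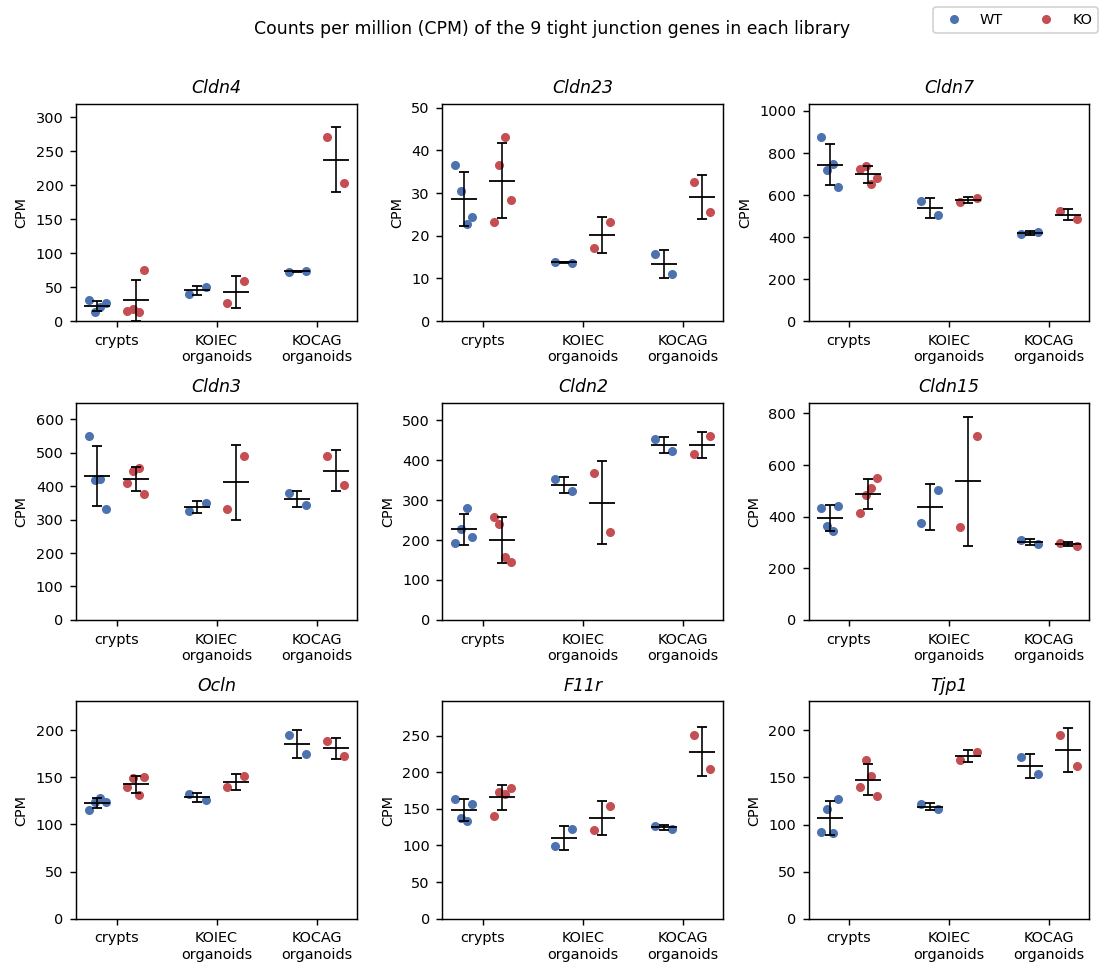
CPM (linear axis from 0, scaled per gene) of each of the 9 genes in every WT (blue) and KO (red) library of the 3 experiments, with the mean and SD of each group in black. The KOCAG KO libraries stand above their WT libraries for Cldn4 (271 and 203 against 72.7 and 73.9), Cldn23 and F11r, and 1 crypt KO library holds 75.4 CPM of Cldn4 while the other crypt libraries lie at or below 30.8.

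Cell type markers moved in the same KOCAG libraries. Of 9 enterocyte markers, among them Alpi, Apoa4 and Krt20, 8 were called higher, and the list summed to 4568 to 4919 CPM in WT and 10541 to 13454 CPM in KO. All 5 Paneth, all 6 goblet and all 5 enteroendocrine markers were called higher, where 18.1% of all tested genes were. Of the stem cell markers 2 of 5 were called lower, where 13.4% of all tested genes were. The stem cell marker Ascl2 had a positive log2 fold change (0.32) and was not called. Summed levels went from 4776 to 5134 in WT to 8036 to 8497 CPM in KO for Paneth markers, and from 2812 to 3319 in WT to 2308 to 2705 CPM in KO for stem cell markers. Leukocyte markers summed to 0.721 to 1.42 CPM in WT and 4.22 to 6.1 CPM in KO, with Ptprc at 0 in both WT libraries. The part of these cell types in the junction gene changes was not tested, and in bulk libraries a change in the number of cells of a type and a change in RNA per cell cannot be told apart.

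In the crypts none of the 9 genes was called by edgeR. An unadjusted p under 0.05 was held by 3 of the 9, beside 4287 of all 13427 tested genes. The DESeq2 Wald test called 1, Tjp1, and 2457 genes in all. Tjp1 was at 92.2, 116, 90.7 and 127 CPM in the WT libraries and at 139.7, 168, 152 and 129.9 CPM in the KO libraries. The lowest KO library lay just above the highest WT library. The log2 fold change was 0.47 ± 0.14 (SE, adjusted p = 0.0625), and an exact permutation test gave the smallest p that 4 against 4 libraries allow, 0.0286 (two-sided). Permutation p-values were not corrected over genes. Within libraries of low mitochondrial ribosomal RNA (1 WT, 3 KO) the difference was 0.73, and within the pair of intermediate level (1 WT, 1 KO) it was 0.03. Without WT replicate 4, the highest WT library, whose loss lowers the WT mean, Tjp1 passed the adjusted test (log2 fold change 0.58, adjusted p = 0.0302). That fit called 1864 genes in all against 934. Tjp1 also passed in the fit of all 16 libraries (adjusted p = 0.0339). It stayed uncalled in 14 of 17 alternative fits. Among these were the class covariate (adjusted p = 0.270, 2 genes called in all) and the fit without WT replicate 1 (adjusted p = 0.137, 20 genes called in all).

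Ocln was at 116, 124, 128 and 124 CPM in WT crypts and at 139.8, 149, 131 and 151 CPM in KO crypts. These ranges did not overlap, with a log2 fold change of 0.22 ± 0.085 (SE, adjusted p = 0.119, exact permutation p = 0.0286). The difference was 0.27 and 0.28 within the low and the intermediate class of mitochondrial ribosomal RNA. Cldn15 was at 434, 362, 343 and 439.9 CPM in WT and at 413, 484, 509 and 550.0 CPM in KO crypts, groups that overlapped. Its log2 fold change of 0.31 ± 0.13 (SE, adjusted p = 0.144) turned to -0.02 when the mean score of the enterocyte markers was added as a covariate. The sums of these markers overlapped little between WT and KO, so that fit cannot tell the deletion from enterocyte content.

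Enterocyte markers summed to 2338 to 10417 CPM in WT crypts and 9643 to 19589 CPM in KO crypts. Of these 9 markers, 0 were called by edgeR and 8 had an unadjusted p under 0.05, beside 4287 of 13427 tested genes. Of 5 stem cell markers, 2 were called lower, beside 357 of 13427 tested genes. With the enterocyte score in the fit, the log2 fold change was 0.29 for Tjp1 and 0.26 for Ocln, against 0.47 and 0.22 without it. Neither was called (adjusted p = 0.704 and 0.646). That fit called 1 gene in all, against 934 without the score, and the marker sums overlapped little between WT and KO. It therefore cannot tell the deletion from enterocyte content, whose part in these values was not tested.

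Cldn4 in crypts was set by 1 library. It was at 30.8, 13.4, 20.8 and 26.1 CPM in WT and at 14.9, 18.1, 13.6 and 75.4 CPM in KO, so 3 of the 4 KO libraries lay within the WT range and replicate 4 lay far above it. The log2 fold change of 0.42 ± 0.55 (SE, adjusted p = 0.613) became -0.54 without KO replicate 4. The same library held 141 CPM of tuft cell markers, against 24.3 to 37.4 CPM in the other 7 crypt libraries, and the part of this in the Cldn4 value was not tested. F11r was at 164, 137, 133 and 157 CPM in WT and at 141, 174, 169.8 and 179 CPM in KO crypts, and its groups overlapped (log2 fold change 0.16 ± 0.11, adjusted p = 0.336).

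The remaining claudins overlapped between WT and KO crypts. Cldn2 was at 192, 228, 280.1 and 208 CPM in WT and at 258, 239.9, 157 and 144 CPM in KO. Cldn7 ranged from 639 to 876 CPM in WT and from 652 to 739.9 CPM in KO, Cldn3 from 331 to 551 and from 375 to 455 CPM, and Cldn23 from 22.7 to 36.6 and from 23.3 to 43.2 CPM. Their log2 fold changes ran from -0.18 (Cldn2) to 0.20 (Cldn23), with adjusted p from 0.532 to 0.901.

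In the KOIEC organoids none of the 9 was called by edgeR or by DESeq2. An unadjusted p under 0.05 was held by 1, Tjp1, beside 650 of all 13938 tested genes. Tjp1 was at 121 and 117 CPM in WT and at 168 and 177 CPM in KO. Both KO libraries were above both WT libraries, with a log2 fold change of 0.54 ± 0.15 (SE, edgeR adjusted p = 0.856). Ocln, at 132 and 126 CPM in WT against 139 and 151 CPM in KO, and Cldn23, at 13.9 and 13.7 against 17.2 and 23.2 CPM, had groups that did not overlap either. Without KO replicate 1, Tjp1 (0.57, adjusted p = 0.0320) and Cldn2 (-0.62, adjusted p = 0.0391) passed the test, in a fit with 1 KO library that called 2322 genes in all against 1 with every library. Without KO replicate 2 the Cldn2 value was 0.12. With 2 libraries a group an exact permutation test cannot go below 0.333, and the share of all tested genes with separate groups was not counted.

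The other 6 genes had overlapping groups in the KOIEC organoids, and several followed 1 KO library. Cldn15 was at 375 and 502 CPM in WT and at 361 and 714 CPM in KO, and Cldn3 at 325 and 349 against 332 and 490.5 CPM. Cldn2 was at 352 and 324 CPM in WT and at 367 and 219.8 CPM in KO. Cldn4 was at 40.4 and 49.97 CPM in WT and at 26.6 and 59.6 CPM in KO, with no shared direction. KO replicate 2, the library high for Cldn15, Cldn3 and Cldn4 and low for Cldn2, differed from KO replicate 1 in many marker lists. It summed to 12474 CPM of enterocyte and 335 CPM of stem cell markers, against 4129 and 1467 CPM in KO replicate 1. Goblet markers were at 6907 against 1847 CPM, Paneth markers at 2345 against 1783, enteroendocrine markers at 869 against 255 and tuft markers at 51.4 against 18.3. The part of these cell types in the junction gene values was not tested. F11r was at 99.1 and 122 CPM in WT against 121 and 154 CPM in KO, and Cldn7 at 571 and 506 against 566 and 585 CPM.

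**Figure D2:**
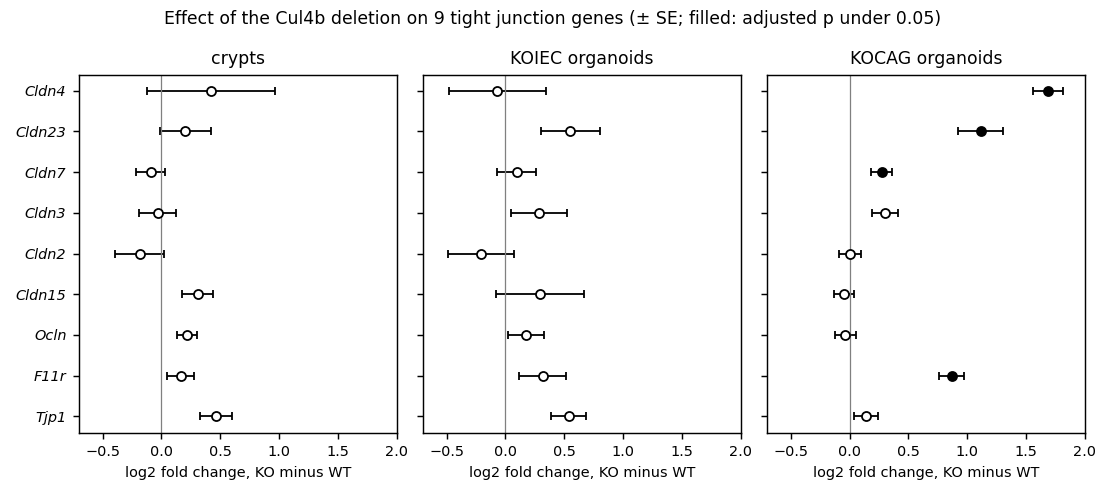
The log2 fold change (KO minus WT, x axis) with its SE for each of the 9 genes in the 3 experiments, where filled circles mark an adjusted p under 0.05. Filled circles appear in the KOCAG panel for Cldn4 (1.69), Cldn23 (1.11), F11r (0.87) and Cldn7 (0.27), and none appears in the other panels, where Tjp1 lies at 0.47 and 0.54.

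Whether the deletion acted differently between experiments was tested as an interaction over 15585 genes, and none of the 9 genes passed in any of the 3 contrasts. The calls over all genes were 0.372% for KOCAG organoids minus crypts, 0.00642% for KOIEC organoids minus crypts and 0.385% for KOCAG minus KOIEC organoids. The smallest adjusted p was that of F11r, whose effect was 0.69 ± 0.21 (SE, log2) larger in KOCAG organoids than in crypts (adjusted p = 0.166). For Cldn4 the effect was larger by 1.25 ± 0.83 than in crypts and by 1.73 ± 0.95 than in KOIEC organoids (adjusted p = 0.534 and 0.550), and for Cldn23 by 0.91 ± 0.37 than in crypts (adjusted p = 0.275). Tjp1 differed by -0.34 ± 0.22 and -0.42 ± 0.25 in the same contrasts, toward the KOIEC side (adjusted p = 0.521 and 0.585). For none of these genes are the 3 experiments shown to differ, and the size of the errors does not show that they act alike.

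Levels of different genes were compared per length, as TPM (counts per base of gene length, scaled to the same sum in each library) computed from the counts and the deposited gene lengths. In WT crypts Cldn7 (901 ± 145 TPM, SD, n = 4) and Cldn3 (808 ± 191) led and overlapped in range, followed by Cldn15 (436 ± 45), Cldn2 (161 ± 30) and F11r (130.3 ± 11.8), of which the last pair overlapped. Ocln followed at 68.4 ± 4.2 TPM, and Cldn23 (36.5 ± 9.0), Tjp1 (32.0 ± 4.8) and Cldn4 (29.3 ± 9.3) were the lowest, with neighbours in that order overlapping. In WT organoids of the KOIEC experiment Cldn7 and Cldn3 again led (765 and 739 TPM, overlapping), and in WT organoids of the KOCAG experiment Cldn3 (791 TPM) stood above Cldn7 (593 TPM). Cldn4 was seventh of 9 in both WT organoid sets, at 68.5 and 111 TPM. Each experiment has a table and WT libraries of its own, so levels were not tested between them.

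In the KO organoids of the KOCAG experiment Cldn4 reached 346 ± 65 TPM (SD, n = 2), a range that overlapped that of Cldn2 (349.6 ± 31). Cldn2 in turn overlapped Cldn15 (366 ± 5.1), and F11r followed at 227 ± 30.1 TPM without overlap. As a share of the summed TPM of the 6 claudins, Cldn4 made up 4.75% to 5.07% in WT and 11.5% to 13.7% in KO organoids of the KOCAG experiment. Over the same libraries Cldn2 made up 15.8% to 16.1% and 11.5% to 14.3%, and Cldn15 17.2% to 17.4% and 12.9% to 13.9%, while the summed claudin level went from 2242 to 2297 TPM in WT to 2599 to 2861 TPM in KO. In crypts the Cldn4 share was 0.76% to 1.62% in WT and 0.74% to 4.13% in KO.

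**Figure D3:**
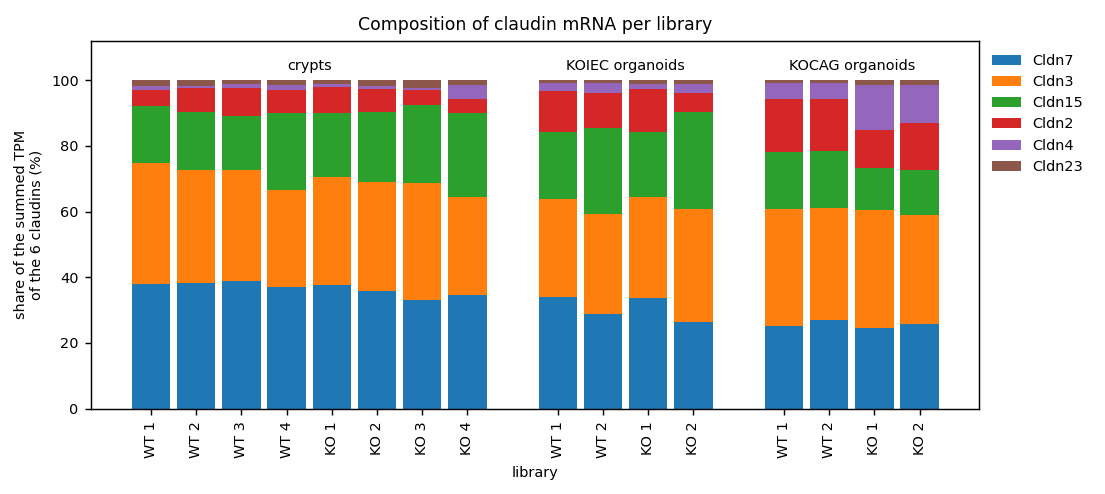
Stacked bars give, for each library, the share (%) that each of the 6 claudins takes of their summed TPM. Cldn4 (purple) takes 11.5% to 13.7% in the KOCAG KO libraries and at most 5.07% in every WT library, and Cldn7 and Cldn3 make up most of every bar.

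The balance of the pore-forming pair was read from the same values. The TPM ratio of Cldn15 to Cldn2 was 3.55, 2.48, 1.92 and 3.31 in the WT crypts and 2.51, 3.16, 5.07 and 5.97 in the KO crypts. It was 1.67 and 2.43 in WT and 1.54 and 5.08 in KO organoids of the KOIEC experiment, and between 0.975 and 1.13 in all 4 libraries of the KOCAG experiment. Values of WT and KO overlapped in all 3 experiments.

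Other genes of the junction were read from lists. Of 18 genes of the cytoplasmic plaque and of cell polarity 17 were tested. In the KOCAG organoids 8 rose and 1 fell, where 18.1% of all tested genes were called higher and 13.4% lower. Among those that rose were Arhgef2, a RhoA exchange factor held at tight junctions (log2 fold change 0.82), the actomyosin kinase gene Mylk (0.65), Crb3 (0.57), Pard6b (0.50) and Mpp5 (0.32), all of apical polarity complexes apart from the first pair, and the plaque genes Cgn (0.55) and Tjap1 (0.50). Ybx3, a Y-box factor known as ZONAB that binds ZO-1, fell (-0.27). The list median was 0.17. In the crypts 4 of 17 rose, where 4.3% of all tested genes were called higher: Mylk (0.82), Tjap1 (0.65), Mpp5 (0.60) and Pard3 (0.40), with adjusted p from 0.0379 to 0.0460 and a list median of 0.38 beside -0.01 over all genes. These crypt calls were close to the limit: 0 of the 17 were called without WT replicate 1, 2 or 3 or without KO replicate 2 or 3. The same held with a covariate for the enterocyte score or for the class of mitochondrial ribosomal RNA, and with the replicate block. Those fits called only 1 to 20 genes in all, against 934. The DESeq2 Wald test called 8 of the 17, and 2457 genes in all. In the KOIEC organoids none of the 17 was called by edgeR or DESeq2, 0 had an unadjusted p under 0.05, and the median was 0.21.

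Mylk, Tjap1 and Mpp5 were called higher in both the crypts and the KOCAG organoids, where 4.3% and 18.1% of all tested genes were. The share of all tested genes called in both was not counted. Mylk, the kinase of myosin light chain that tightens the perijunctional actin ring, was at 123 to 191 CPM in WT crypts and 221 to 368 CPM in KO crypts, and at 36.2 to 42.4 against 52.6 to 71.1 CPM in the KOCAG organoids. Mpp5, the PALS1 scaffold of the Crumbs complex, was at 41.8 to 50.8 against 65.0 to 81.8 CPM in crypts. Each of these ranges was free of overlap between WT and KO, but the genes were named for passing the test on these same libraries. Mylk is also a smooth muscle gene. The smooth muscle list summed to at most 0.625 CPM in the crypt libraries and 1.11 CPM in the KOCAG libraries, and the source of the Mylk change was not tested.

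Among the tricellular and JAM-type membrane proteins, 5 of 8 tested rose in the KOCAG organoids, beside 18.1% of all tested genes. Ildr1, a protein of contacts between 3 cells, changed most, from 5.95 and 8.65 CPM to 14.5 and 25.8 CPM (log2 fold change 1.43, adjusted p = 0.00446). The others were Igsf5 (JAM4, 0.73), Lsr (0.35), which recruits tricellular junction proteins, Cxadr (0.31), the coxsackievirus and adenovirus receptor, and the occludin relative Marveld3 (0.29). In the crypts Cxadr was the 1 of 7 tested that rose (0.40, adjusted p = 0.0491, beside 4.3% of all tested genes), a call absent in most alternatives. In the KOIEC organoids none of 8 was called by edgeR or DESeq2. There 1, Esam, had an unadjusted p under 0.05, beside 650 of 13938 tested genes. Esam was lower in KO, at 0.405 and 1.14 CPM against 4.43 and 5.43 CPM in WT (log2 fold change -2.65, edgeR adjusted p = 0.856). List medians were 0.33, 0.08 and 0.18 in the KOCAG organoids, the crypts and the KOIEC organoids.

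Of 13 adherens junction and desmosome genes, all tested, 5 rose in the KOCAG organoids, where 18.1% of all tested genes were called higher. They were Nectin2 (0.55), the plakoglobin gene Jup (0.51), Pkp3 (0.41), and the catenin genes Ctnna1 (0.29) and Ctnnb1 (0.28). None was called by edgeR in crypts or KOIEC organoids. There 3 and 1 had an unadjusted p under 0.05, beside 4287 of 13427 and 650 of 13938 tested genes. DESeq2 called 2 and 0 in these experiments, beside 2457 and 26 over all genes. The list medians were 0.16, 0.18 and 0.18 in the KOCAG organoids, the crypts and the KOIEC organoids. In the fit of all 16 libraries 0 genes of these 3 lists were called in the KOCAG organoids. That fit called 477 genes in all, against 4278 in the main fit. Fewer genes of each list were also called when 1 WT library was left out, which leaves 1 library in that group. Calls over all tested genes fell as well. Of the 29 claudin genes outside the 9, 27 were too low to be tested in each experiment. The 2 tested were Cldn12, at 55.5 to 79.7 CPM in all libraries and not called in any comparison, and Cldn8, a sealing claudin of the distal gut at 5.65 CPM or less, which fell in the KOCAG organoids from 4.39 and 5.65 to 1.94 and 2.11 CPM (log2 fold change -1.30, adjusted p = 0.0107). The call on Cldn8 was lost without WT replicate 1 (adjusted p = 0.0920) and with DESeq2 (adjusted p = 0.0593).

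**Figure D4:**
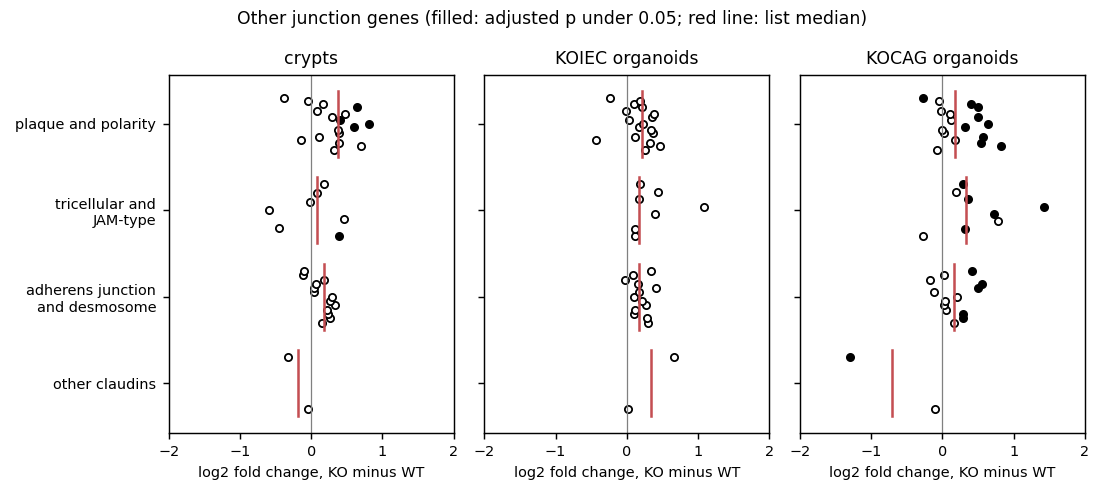
Each circle is 1 tested gene of 4 junction lists, placed by its log2 fold change (KO minus WT, x axis) in each experiment. Esam in the KOIEC organoids, at -2.65, lies beyond the end of the axis and is not seen. Filled circles have an adjusted p under 0.05, red lines mark list medians, and the KOCAG panel holds most filled circles (8 higher and 1 lower in the plaque list), with 5 in the crypt panel and none in the KOIEC panel.

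Across the 8 crypt libraries, which share their genotype groups and classes of mitochondrial ribosomal RNA, pairs of the 9 genes moved together to different degrees. Cldn15 and F11r were the most alike (Pearson r = 0.947, Spearman rho = 0.952 over log2 CPM), and Cldn2 and Cldn15 the most opposed (r = -0.806, rho = -0.786). Cldn3 and Cldn7 had r = 0.802 and Ocln and Tjp1 r = 0.690. Of all tested genes, those most like Cldn15 were Soat2, Ptprh and Cd82 (r = 0.992 to 0.993), and those most like Tjp1 were Dnajc13, Trip12 and Synj1 (r = 0.986 to 0.992). For Cldn4 they were Insrr, Cd200 and Eapp (r = 0.960 to 0.976), and for Cldn2 Mrpl1, Gm6807 and M6pr (r = 0.966 to 0.989). For Cldn23 they were Naa60, Muc6 and Flywch1, for F11r Gm8909, Dok4 and Nadsyn1, for Ocln Slk, Ptpn12 and Rlf, for Cldn3 Gm12854, Ddx54 and AI606181, and for Cldn7 Rac3, Lemd2 and Rpsa-ps9, all with r from 0.954 to 0.986. They were the highest of 13427 tested genes over 8 libraries, and are given as a description.

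Few reads came from genes that overlap the 9. Cldn3 shares its last 40 bases with the antisense gene Wbscr25, which held at most 8 counts in a crypt library. Tjp1 spans 231617 bases and overlaps 3 predicted genes with at most 2 counts each in the crypt and KOCAG tables. The other 7 genes overlap no gene of the table.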

How the data were processed

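Sequencing was done at Novogene. For each experiment the authors deposited 1 table of raw read counts per gene, not normalized, with gene lengths (in bases) and positions beside them. The submitters' processing notes name HISAT2 2.0.5 and featureCounts 1.5.0-p3. Strand use in counting is not given in the sources used here, so reads of antisense genes cannot be told apart. Positions of the 9 genes were the same in GENCODE release M21 (GRCm38), as were 95.24% of the crypt table's genes found there. Groups and replicate numbers follow the labels. The 9 genes, the gene lists and the tests were chosen with earlier results of these data known.

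KO was compared with WT within each experiment, with edgeR 4.0.16 in R 4.3.3 (filterByExpr, TMM, quasi-likelihood F test, Benjamini-Hochberg over 13427, 13938 and 13598 tested genes), and a gene was called at an adjusted p under 0.05. The deposited counts were turned into CPM with TMM factors, log2 CPM with a prior count of 2, and TPM with the gene lengths. Each SE is log2 fold change over the root of F. Interactions came from 1 fit of 16 libraries. Single genes in crypts were also compared by exact permutation. Total counts ran from 7348191 to 16881395, and a floor of 3 counts is 0.178 to 0.408 CPM. No library was left out of the main comparisons. Genes of the 4 wider junction lists that passed the test were named, apart from 1 that is counted but not reported here, and for likeness the 3 genes of highest Pearson r. Scripts were tested on simulated counts.

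Alternatives were DESeq2 1.42.0 (Wald test, or its size factors in edgeR), library size only, no low-count filter, 10 counts in every library, a 2-fold limit, a replicate block, all 16 libraries in 1 fit, covariates for mitochondrial ribosomal RNA (classes bounded at 100 and 2000 CPM) and for the enterocyte score in crypts, and leaving out each library. For the wider lists these were added after the data were seen. Promoter sequences are from RefSeq, and 8 of the 9 genes matched (not Cldn23).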

Additional observations from a re-analysis of the deposited data

Results flagged for a closer look

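Cldn4 stood at 75.4 CPM in KO replicate 4 of the crypts, while the other 3 KO libraries lay between 13.6 and 18.1 CPM. It was the 1 library that stood apart by Dixon's test among 18 groups of 4 crypt libraries (9 genes in WT and in KO), and chance alone gives about 1 such group in 20. The same library held 1078 CPM of mitochondrial ribosomal RNA, against 18.9 to 25.2 CPM in the other KO crypts, and 141 CPM of tuft cell markers, against 24.3 to 37.4 CPM in the other 7 crypt libraries. Its Paneth markers summed to 17788 CPM, against 2021 to 11594 CPM in the other KO crypts and 10126 to 18227 CPM in the WT crypts. The part of these in the Cldn4 value was not tested.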

How the results depend on the processing

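No member was called in crypts in the main comparison, and 1, Tjp1, was called with the DESeq2 Wald test and with all 16 libraries in one fit, and 0 to 1 when each library was left out. The count was 0 to 2 for the KOIEC organoids and 3 to 6 for the KOCAG organoids when each library was left out, which leaves an organoid group with 1 library, assumed to vary like the other group. In the KOCAG organoids 4 members became 2 with the 2-fold limit and 1 with all 16 libraries. Deviations of same-numbered crypt libraries had correlations of -0.0437, 0.190, -0.395 and 0.433, with no shared direction. The highest was that of replicate 4, whose WT and KO libraries share the intermediate class of mitochondrial ribosomal RNA. The organoids have 2 pairs each, which by construction give the same correlation (0.342 in the KOIEC and 0.0669 in the KOCAG experiment). The numbers were not taken as pairs, and these few values cannot settle whether they are. With the replicate block the count of members called was 0 in crypts, 0 in KOIEC organoids and 5 in KOCAG organoids, and the count over all genes in crypts went from 934 to 4.

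Some directions turned, none of a value that was called. In crypts, the class of mitochondrial ribosomal RNA gave -0.0634 for Cldn4, and the enterocyte score gave 0.29 for Cldn2, 0.0243 for Cldn3, -0.42 for Cldn4, -0.0246 for Cldn15, -0.12 for Cldn23 and -0.0949 for F11r. Cldn2 in the KOCAG organoids, at 0.0032, was -0.0025 with DESeq2 size factors, -0.0266 with library size only, -0.0019 with 10 counts in every library, -0.0024 with DESeq2 and -0.0042 with all 16 libraries. Among differences between experiments, Cldn2 (KOIEC organoids minus crypts) was 0.0051 with DESeq2 size factors and 0.0314 with library size only, Cldn15 in the same contrast -0.0050 and Cldn3 (KOCAG minus KOIEC organoids) 0.0513 with library size only.

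Leaving out each library gave ranges of -0.12 to 0.12 for Cldn3, -0.14 to 0.0050 for Cldn7 and -0.54 to 0.68 for Cldn4 in crypts. In the KOIEC organoids they were -0.76 to 0.40 for Cldn4, -0.0015 to 0.19 for Cldn7, -0.62 to 0.12 for Cldn2, -0.0214 to 0.54 for Cldn3 and -0.28 to 0.70 for Cldn15. In the KOCAG organoids they were -0.12 to 0.0339 for Ocln, -0.0788 to 0.0583 for Cldn2 and -0.0169 to 0.27 for Tjp1. F11r, Cldn4 and Cldn23 were positive in the KOCAG organoids in all alternatives run (0.69 to 1.01, 1.45 to 1.88 and 0.88 to 1.38).

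Over all crypt genes, 61.8% of calls were higher in KO, and 51.0% with library size only, where the median log2 fold change moved to -0.0947. The 934 calls became 2457 with DESeq2, 1659 with all 16 libraries, 2 with the class covariate, 1 with the enterocyte score and 2 to 2468 when each library was left out. The 4278 calls of the KOCAG organoids became 477 with all 16 libraries, 2761 with DESeq2 and 2789 to 5177 when each library was left out, and the 1 call of the KOIEC organoids became 0 to 2322. The causes were not tested.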
